A study of Homo sapiens with 12 samples.

Results

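The loci described here carry peaks of H3K27ac at the ends of protein-coding genes in MiaPaCa2 and in no CFPAC1 library. H3K27ac was mapped by ChIP-seq, with 1 antibody, in 12 libraries of both lines, which come from human pancreatic ductal adenocarcinoma. The peaks of the 12 lists were merged into 188651 loci on chromosomes 1 to 22 and X. Of these, 23684 lay within 1 kb of either end of a RefSeq protein-coding gene. A gene-end locus was kept when all 4 MiaPaCa2 libraries and none of the 8 CFPAC1 libraries had a peak overlapping it (1 bp or more). The loci were thus chosen by the presence and absence of peaks in these same lists. This left 483 loci, 2.04% of the gene-end loci, at 493 genes. A further 5023 loci with the same pattern lay away from gene ends, so that 2.92% of all loci were restricted to MiaPaCa2 in this way. The difference between the lines chose the loci and is described below without a test.

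The 4 MiaPaCa2 libraries were 2 of untreated bulk cells and 2 of bulk cells given 1000 U/ml of human interferon beta (IFN-β) for 2 h. The 8 CFPAC1 libraries were 2 each of untreated bulk cells, bulk cells treated with IFN-β in the same way, wild-type (WT) clones infected with the lentiviral CRISPR vector, and clones that received the vector with Cas9 and a guide against IRF1. The clones were isolated by dilution and are each a single clone. CFPAC1 was grown in IMDM and MiaPaCa2 in DMEM, so that line and medium cannot be told apart. Whether bulk libraries with the same treatment stem from different cultures is not labelled, and the p-values below measure the spread between these libraries. The lists held 59896 to 109834 peaks on the chromosomes used, and the read depth is unknown.

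Acetylation of lysine 27 of histone H3 marks active promoters and enhancers. Acetylated nucleosomes flank the start of a transcribed gene, and wide acetylated stretches are typical of genes that define a cell's identity. A mark at the 3′ end of a gene can belong to an enhancer or to a neighbouring gene. In bulk samples, fewer cells with a mark and a weaker mark in each cell cannot be told apart.

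Epithelial markers were covered in part in MiaPaCa2 and in full in CFPAC1. The epithelial genes CDH1, EPCAM, GRHL2 and ESRP1 had no covered length within 5 kb of either end in any MiaPaCa2 library. KRT8, KRT18, KRT19, ELF3 and KLF5 were covered in all 4. KLF5 had only 200 to 327 bp in MiaPaCa2, against 4305 to 8432 bp in CFPAC1. All 9 epithelial markers were covered in every CFPAC1 library, with a summed covered length of 43064 to 66327 bp against 31038 to 36936 bp in MiaPaCa2. Of 5 mesenchymal markers, VIM and ZEB1 were covered in every MiaPaCa2 library, and CDH2, FN1 and SPARC were at 0 in all 4. In CFPAC1, VIM, ZEB1 and CDH2 were covered in all 8 libraries, and the summed level of the 5 was 10543 to 18890 bp against 11898 to 13401 bp in MiaPaCa2, so this list did not separate the lines. PTPRC, the leukocyte marker CD45, was at 0 in all 12 libraries. Summed over 5 leukocyte markers, MiaPaCa2 had 430 to 4132 bp and CFPAC1 2747 to 6247 bp. Of 3 endothelial markers, CDH5 was covered in every MiaPaCa2 library, and PECAM1 and VWF were at 0 in all 4. The summed level of these 3 was 3711 to 6073 bp in MiaPaCa2 and 3418 to 7118 bp in CFPAC1.

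The promoters of 7 genes show the kind of sequence on which these loci lie. WT1, GAS1 and STMN3 were chosen as a developmental, a Hedgehog pathway and a neuronal gene described below. ELAC1, SMAD4, ZNF470 and ZNF71 were chosen because they belong to long stretches without any CFPAC1 peak. Each line gives the 250 bases before the RefSeq gene start (GRCh38.p14), 5′ to 3′ on the strand of the gene, all of them under a MiaPaCa2-only locus. Capitals mark the GC box GGGCGG and the CCAAT box, each on either strand.
WT1 (chr11:32435540-32435789, minus strand): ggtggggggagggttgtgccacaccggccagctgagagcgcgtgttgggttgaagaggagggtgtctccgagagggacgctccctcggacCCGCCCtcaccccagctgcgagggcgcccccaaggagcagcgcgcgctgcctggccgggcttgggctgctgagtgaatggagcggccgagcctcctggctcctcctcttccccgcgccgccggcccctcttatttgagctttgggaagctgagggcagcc
GAS1 (chr9:86947507-86947756, minus strand): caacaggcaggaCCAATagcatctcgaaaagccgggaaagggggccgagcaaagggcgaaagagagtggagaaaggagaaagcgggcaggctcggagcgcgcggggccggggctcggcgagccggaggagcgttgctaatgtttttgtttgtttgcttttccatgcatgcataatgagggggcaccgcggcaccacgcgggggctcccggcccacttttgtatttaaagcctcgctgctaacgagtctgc
STMN3 (chr20:63652767-63653016, minus strand): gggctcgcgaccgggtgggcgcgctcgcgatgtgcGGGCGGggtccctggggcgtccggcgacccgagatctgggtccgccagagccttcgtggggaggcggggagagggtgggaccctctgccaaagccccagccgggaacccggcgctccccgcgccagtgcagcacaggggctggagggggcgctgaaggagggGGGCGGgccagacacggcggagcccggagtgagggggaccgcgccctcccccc
ELAC1 (chr18:50967790-50968039, plus strand): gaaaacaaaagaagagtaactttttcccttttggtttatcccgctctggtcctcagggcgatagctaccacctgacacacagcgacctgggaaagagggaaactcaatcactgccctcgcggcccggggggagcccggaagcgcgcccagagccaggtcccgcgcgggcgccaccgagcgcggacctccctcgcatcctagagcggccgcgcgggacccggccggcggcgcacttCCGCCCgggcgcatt
SMAD4 (chr18:51029963-51030212, plus strand): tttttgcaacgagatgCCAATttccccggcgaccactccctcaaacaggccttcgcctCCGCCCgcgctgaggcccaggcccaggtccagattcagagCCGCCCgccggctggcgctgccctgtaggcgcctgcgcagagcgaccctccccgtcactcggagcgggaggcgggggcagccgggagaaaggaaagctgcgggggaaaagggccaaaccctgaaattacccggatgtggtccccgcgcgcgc
ZNF470 (chr19:56567218-56567467, plus strand): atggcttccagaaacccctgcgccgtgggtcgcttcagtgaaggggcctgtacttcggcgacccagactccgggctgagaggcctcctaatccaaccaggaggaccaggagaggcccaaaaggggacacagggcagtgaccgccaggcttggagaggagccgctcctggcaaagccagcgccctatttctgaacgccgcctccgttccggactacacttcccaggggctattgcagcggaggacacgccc
ZNF71 (chr19:56595052-56595301, plus strand): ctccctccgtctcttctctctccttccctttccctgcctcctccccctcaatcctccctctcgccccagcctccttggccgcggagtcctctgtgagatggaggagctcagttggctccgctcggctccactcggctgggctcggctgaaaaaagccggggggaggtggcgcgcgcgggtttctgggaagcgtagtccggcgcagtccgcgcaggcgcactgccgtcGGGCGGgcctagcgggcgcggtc
Over the 300 bases from 250 before to 50 after the start, GC content was 61.7% at GAS1 and 77.7% at STMN3, the lowest and the highest of the 7. The ratio of observed to expected CpG ran from 0.57 at WT1 to 0.94 at ELAC1. SMAD4 and STMN3 each had 2 GC boxes in the 250 bases, GAS1 and SMAD4 each had 1 CCAAT box, and ZNF470 had neither motif.

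Of the 483 loci, 237 lay within 1 kb of a gene start, 142 lay only near the far end of a gene, and for 104 the RefSeq promoter table held no entry that tells a start from an end. Gene starts thus made up 62.5% of the loci with a known side, below the 95.7% of gene-end loci held by all 12 libraries and the 72.9% of 1175 loci held by all 8 CFPAC1 and no MiaPaCa2 library. Their width had a median of 983 bp and an interquartile range of 660 to 1558 bp, against medians of 2021 bp in the CFPAC1-only loci and 2492 bp in the loci of all 12 libraries. Merging over more libraries widens a locus, so these widths are not on an equal footing. With peaks merged up to 500 bp apart the median width of the MiaPaCa2-only loci was 1772 bp. Of the 483 loci, 80 (16.6%) reached 2000 bp, against 35.5% of all gene-end loci and 25.3% of MiaPaCa2-only loci away from gene ends. Among the 483, loci at gene starts had a median width of 825 bp and those at far ends only of 1300 bp.

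The 217 promoters at these loci had a median CpG ratio of 0.79 and a GC content of 67.7%. The corresponding values were 0.66 and 61.3% at 625 promoters of CFPAC1-only loci, 0.86 and 65.3% at 8474 promoters of loci of all 12 libraries, and 0.76 and 62.7% over all 15812 protein-coding promoters. A ratio of at least 0.6 was reached by 66.4% of the promoters at MiaPaCa2-only loci, 56.8% at CFPAC1-only loci and 88.0% at loci of all 12 libraries. The share was 79.5% at all gene-end loci and 65.8% over all protein-coding promoters, so that of MiaPaCa2-only loci was near the latter. Each motif was searched on both strands of the 300 bases. The AP-1 motif TGANTCA was in 3.69% of the promoters at MiaPaCa2-only loci, 10.2% at CFPAC1-only loci and 5.76% of all promoters. The motif GCGTGGG, a core shared by EGR proteins and WT1, was in 12.4%, 5.6% and 8.35%. The TATA box TATAAA was in 4.61%, 10.7% and 9.64%, and the GC box GGGCGG in 68.2%, 56.3% and 58.5%. The interferon response motif, searched as 2 copies of GAAA with 2 bases between them, was in 1.38%, 3.2% and 3.17%. Promoters at gene-end loci of all 12 libraries held the AP-1 motif in 4.11%, GCGTGGG in 9.85%, the TATA box in 5.07%, the GC box in 72.5% and the interferon response motif in 2.75%. The AP-1, TATA and GC box shares at MiaPaCa2-only loci were thus near those of promoters acetylated in both lines. Every GC box GGGCGG contains a CpG, so its share is not separate from the CpG ratio.

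Within each MiaPaCa2 library the peaks of these loci ranked in the middle of the list. The highest fold enrichment in each locus, a ratio to local background computed by the authors for each peak, was ranked among all peaks of the same library. The median percentile was 69.4 and 61.2 in the untreated libraries and 51.4 and 63.5 in the treated ones. Gene-end loci of all 12 libraries stood at 87.0 to 91.1 in the same 4 lists. CFPAC1-only loci stood at 71.0 to 77.6 in the CFPAC1 lists. The highest fold is taken over all peaks of a library in a locus, and loci of both these sets are wider. Their ranks are thus not on an equal footing with those of the MiaPaCa2-only loci. The first IFN-β library, which had the fewest peaks, gave the lowest rank. Single loci stood far above these medians. CIDEA, which encodes a lipid droplet protein, had a mean fold percentile of 95.4 at its far end, with 3745 and 3308 bp without and 4614 and 3554 bp with IFN-β. The highest-ranked of 3 loci at CHD5, a chromatin remodeller gene of the nervous system, stood at 90.9, with 3042 and 2571 bp without and 2263 and 2565 bp with IFN-β.

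**Figure D1:**
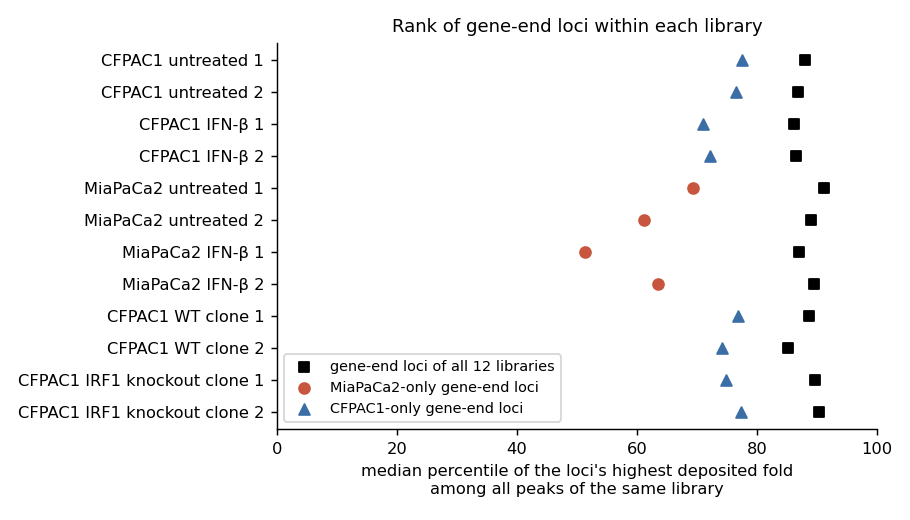
Median percentile, among all peaks of the same library, of the highest deposited fold in each gene-end locus, for 3 sets of loci (x axis, percent) in the 12 libraries (y axis). In the MiaPaCa2 libraries the MiaPaCa2-only loci sit at 51.4 to 69.4, below the loci of all 12 libraries at 87.0 to 91.1. The other 2 sets have wider loci, so the ranks are not on an equal footing.

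A small number of broad loci held much of the covered length, which is the number of bp under peaks of a library. The mean covered length over the 4 libraries ranged from 225 bp to 18199 bp, with an interquartile range of 453 to 1065 bp. The 12 widest-covered loci made up 23.6% of the total of 546 kb. The coefficient of variation over the 4 libraries had a median of 26.3% over all 483 loci.

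WT1, a zinc finger transcription factor of kidney and gonad development, had 3 loci. The locus over its start (chr11:32435522-32454456) was covered by 18770 and 17154 bp in the untreated libraries, and by 17724 and 18935 bp in the treated ones. The locus over its far end (chr11:32385641-32398858) had 13050 and 10560 bp without and 11769 and 12693 bp with IFN-β. The treated libraries lay within the untreated range at the far end and overlapped it at the start. The third locus, inside the gene near its start (chr11:32433074-32434866), had 1473 and 739 bp without and 1401 and 1422 bp with IFN-β. The nearest CFPAC1 peak was 13276 bp from the start locus and 21969 bp from the far-end locus, and 3 CFPAC1 libraries had a peak somewhere in the gene or within 5 kb of it. A further 13 MiaPaCa2-only loci lay within 50 kb of the start locus.

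ALDH8A1, an aldehyde dehydrogenase gene, had the largest mean covered length. Its far-end locus (chr6:134908103-134926643) had 18133 and 17765 bp without and 18452 and 18445 bp with IFN-β. No CFPAC1 library had a peak in the gene or within 5 kb of it, and 12 other MiaPaCa2-only loci lay within 50 kb. METTL4, which encodes an adenine methyltransferase, had a far-end locus (chr18:2531655-2548485) with 16069 and 16186 bp without and 15107 and 16797 bp with IFN-β. Its mean fold percentile of 99.1 was the highest of the 483 loci. At METTL4 all 8 CFPAC1 libraries had peaks in or near the gene, the nearest 14656 bp away. EMCN, which encodes endomucin, an endothelial surface glycoprotein, had a start locus (chr4:100505222-100520060) with 13605 and 14150 bp without and 13741 and 14716 bp with IFN-β. The groups overlapped at METTL4 and EMCN.

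COL3A1, the gene of type III collagen, had a locus just inside the gene (chr2:188974849-188985176) with 9163 and 10107 bp without and 5955 and 9861 bp with IFN-β. The low value came from the first IFN-β library alone. IL1RAPL1, which encodes a synaptic adhesion protein of the interleukin-1 receptor family, had a start locus (chrX:28585997-28593799) with 7441 and 7329 bp without and 7074 and 7779 bp with IFN-β. Its nearest CFPAC1 peak was 45556 bp away, although all 8 CFPAC1 libraries had a peak elsewhere in this long gene. The far-end loci of ADTRP (chr6:11708028-11719780) and PRDM8, a PR-domain gene (chr4:80202938-80209854), had mean covered lengths of 9664 and 6467 bp. The start loci of PGBD3 (chr10:49517715-49525585) and S100Z, an S100 calcium-binding protein gene (chr5:76845579-76852486), had means of 7263 and 6258 bp. The locus over an end of ALDH3A1, an aldehyde dehydrogenase gene, closed the list of 12 with a mean of 4735 bp.

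**Figure D2:**
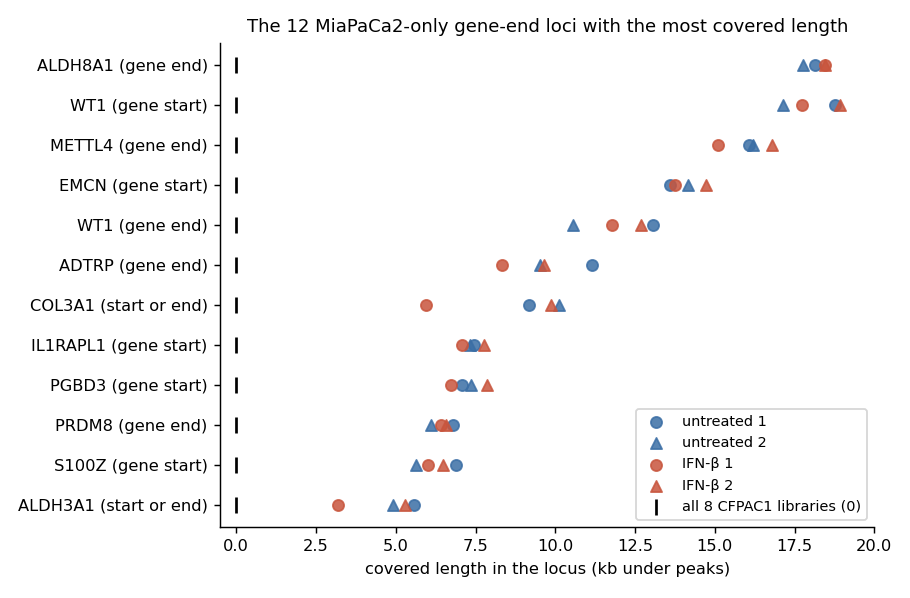
Covered length in kb under peaks (x axis) of the 12 MiaPaCa2-only gene-end loci with the largest mean (y axis), 1 point for each of the 4 MiaPaCa2 libraries, with a bar at 0 for the 8 CFPAC1 libraries. At ALDH8A1 the 4 points lie between 17765 and 18452 bp, while at COL3A1, ADTRP and ALDH3A1 the first IFN-β library is lowest, at 5955, 8317 and 3185 bp.

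Genes of neurons and of embryonic patterning were among the loci. Counts of list genes stand beside the share over all protein-coding genes, 493 of 19974 (2.47%). The lists were chosen with earlier results of these data known and were given no test. Of 42 neuronal and neuroendocrine genes, 5 (11.9%) had a MiaPaCa2-only locus. STMN3, a neuronal regulator of microtubules, had a locus over its start and another just upstream. The first (chr20:63650910-63653460) had 2447 and 2104 bp without and 2402 and 2528 bp with IFN-β, and the second (chr20:63653532-63655845) had 2270 and 2092 bp without and 1825 and 2221 bp with IFN-β. All 8 CFPAC1 libraries had peaks in or within 5 kb of STMN3, the nearest 1730 bp from the upstream locus. SCG2, which encodes secretogranin II of secretory granules, had 3681 and 3245 bp without and 4782 and 4783 bp with IFN-β. SYP and SYN1, which encode synaptic vesicle proteins, and L1CAM, a neural adhesion gene, had narrow start loci with means of 444, 254 and 370 bp.

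Of 39 HOX genes, which set position along the body axis, 5 (12.8%) had such a locus. HOXC4, HOXC5 and HOXC6 shared 1 locus (chr12:54015740-54019052) with 3225 and 3094 bp without and 2830 and 3303 bp with IFN-β. HOXC8 had 1521 and 1342 bp without and 1435 and 1586 bp with IFN-β. HOXB13 had 2081 and 2228 bp without and 1908 and 2010 bp with IFN-β. The HOXC4 to HOXC6 locus and the HOXC8 locus lay in the same stretch of 21.9 kb without a CFPAC1 peak. Among 217 other developmental transcription factor genes 13 (5.99%) had a locus. NKX2-5, a cardiac homeobox gene, led them with 3494 and 3373 bp without and 3359 and 3576 bp with IFN-β and a mean fold percentile of 92.4. TFAP2A, a factor of neural crest and epidermis, had a mean of 3132 bp at its far end. The homeobox genes EN1, DLX6 and EN2 had means of 1167, 1065 and 989 bp, and SOX8, at a locus shared with LMF1, had 977 bp.

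Ion channel genes had a locus at 14 of 249 (5.62%). KCNMA1, the large-conductance calcium-activated potassium channel gene, had 2 start loci, with means of 4083 and 2333 bp. DDR2, a collagen receptor kinase gene, FGF1, FGF18 and FGF22 were the 4 of 67 growth factor and receptor genes (5.97%). The larger of 2 loci at the start of DDR2 had 4351 and 4112 bp without and 3736 and 4002 bp with IFN-β, 54606 bp from a CFPAC1 peak. COL3A1 was 1 of 4 among 77 collagen, laminin and integrin genes (5.19%). The Wnt list had 4 of 65 (6.15%), namely NOTUM, RSPO4, TCF7 and WNT9A, and the TGF-β and BMP list 4 of 70 (5.71%), namely BMP7, GDF1, SMAD4 and SMAD9. The Notch and Hedgehog list had 2 of 37 (5.41%) and the axon guidance list 2 of 44 (4.55%).

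Most other lists had shares near or below that of all genes, or too few genes for a count of 0 to stand apart from it. None of 28 mesenchymal, 30 epithelial, 22 endodermal transcription factor, 30 antigen presentation, 29 glycolysis, 38 amino acid or 16 muscle genes had a MiaPaCa2-only gene-end locus. CFPAC1-only loci, at 1133 of all genes (5.67%), lay at 11 of the 30 epithelial (36.7%), 6 of the 22 endodermal (27.3%), 5 of the 30 antigen presentation (16.7%) and 3 of the 28 mesenchymal genes (10.7%). They also lay at 25 of the 217 developmental transcription factor genes (11.5%), 15 of the 249 ion channel genes (6.02%), 4 of the 42 neuronal genes (9.52%) and 2 of the 39 HOX genes (5.13%), so these groups were not confined to the MiaPaCa2-only loci. The interferon-stimulated list had 1 of 68 (1.47%), LGALS3BP, at its far end with a mean of 440 bp. Sterol and fatty acid genes had 1 of 48 (SREBF1), cancer-testis genes 1 of 154 (MAGEE1) and protocadherins 1 of 65 (PCDHA4). Numbered ZNF genes had 10 of 509 (1.96%). Markers of other cell types were also among the loci. The leukocyte list had 3 of 20 genes (15%), among them CD4 and SPI1 with means of 1416 and 521 bp. EMCN and CLDN5 were the 2 of 12 endothelial genes (16.7%). Both shares were above the 2.47% of all genes, though on short lists. CFPAC1-only loci lay at 15% of the leukocyte and 8.33% of the endothelial list. The part of such cells in these loci was not tested, and PTPRC, PECAM1 and VWF were at 0 in all 4 MiaPaCa2 libraries.

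The loci differed in how far they stood from CFPAC1 peaks. The nearest CFPAC1 peak was at most 1 kb away at 156 loci (32.3%), between 1 and 10 kb at 171 (35.4%) and more than 10 kb away at 156 (32.3%), with a median of 3432 bp over all. Loci within 1 kb of a CFPAC1 peak had a median width of 794 bp and a median fold percentile of 52.0. Those beyond 10 kb had a median width of 1069 bp and a median fold percentile of 65.9, and 96 of them lay at a gene start. Of the 5023 MiaPaCa2-only loci away from gene ends, 19.2% lay within 1 kb of a CFPAC1 peak and 32.1% beyond 10 kb. The share beyond 10 kb was thus alike in both sets. At CXCL2, which encodes a neutrophil chemokine, the locus past the far end lay 447 bp from a CFPAC1 peak, and all 8 CFPAC1 libraries had peaks in or within 5 kb of the gene. A locus of this set is therefore a stretch of chromatin and need not mark a gene without CFPAC1 peaks. Another MiaPaCa2-only locus lay within 50 kb of 301 of the 483 loci (62.3%), and 23 had at least 10 such neighbours. These neighbour counts are given without those of other sets of loci.

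**Figure D3:**
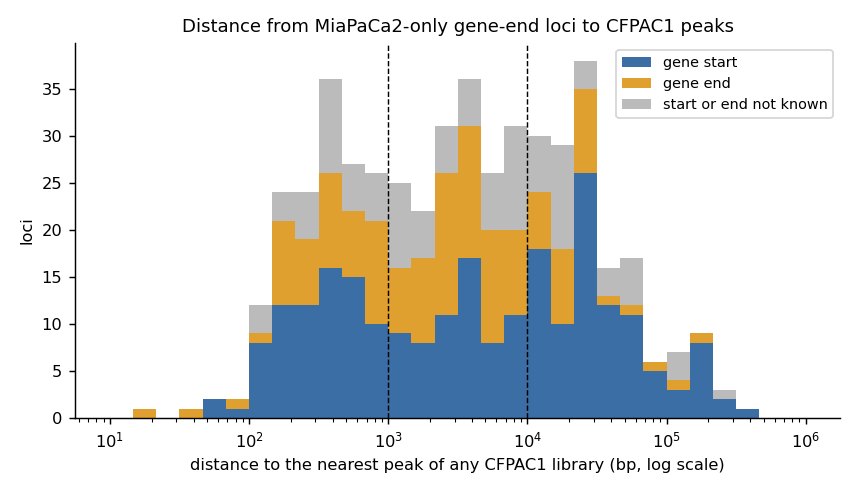
Number of MiaPaCa2-only gene-end loci (y axis) by distance to the nearest peak of any CFPAC1 library (x axis, bp, log scale), coloured by whether the locus lies at a gene start, at a far end or at an end of unknown side. Dashed lines at 1 and 10 kb divide the loci into 156, 171 and 156.

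At 75 loci (15.5%) the nearest gene, with 5 kb on either side, held no peak of any CFPAC1 library. These loci belonged to 65 genes, and 50 lay at a gene start. Their median fold percentile was 67.4, against 56.2 for the other loci. GAS1, a Hedgehog co-receptor gene, was covered at both ends, in a stretch of 742 kb without a CFPAC1 peak. Its far-end locus (chr9:86942573-86946484) had 3163 and 2494 bp without and 3430 and 3532 bp with IFN-β, and its start locus (chr9:86947320-86949699) had 2267 and 1761 bp without and 1953 and 1996 bp with IFN-β.

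SMAD4, the shared mediator of TGF-β and BMP signals, and its neighbour ELAC1, a tRNA-processing enzyme gene, lay together in 314 kb without a CFPAC1 peak on chromosome 18. The SMAD4 start locus (chr18:51028972-51030447) had 1286 and 1260 bp without and 1247 and 1473 bp with IFN-β. A second locus just inside SMAD4 had 723 and 835 bp without and 633 and 776 bp with IFN-β. The ELAC1 start locus (chr18:50967345-50969533) had 1789 and 1936 bp without and 1851 and 1967 bp with IFN-β, and its mean fold percentile of 93.6 was the fourth highest of the 483. The groups overlapped at each of the 3 loci.

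ZNF470, ZNF471 and ZNF71, zinc finger genes near the end of chromosome 19, lay in 768 kb without a CFPAC1 peak. ZNF470 (chr19:56566825-56568295) had 1416 and 1352 bp without and 1419 and 1317 bp with IFN-β. ZNF471 (chr19:56507382-56508536) had 1121 and 1104 bp without and 1132 and 878 bp with IFN-β. ZNF71 (chr19:56594850-56596222) had 1257 and 1121 bp without and 824 and 1307 bp with IFN-β. The mean fold percentiles of the 3 loci were 83.8 to 85.1. MAGEE1, of the MAGE family, had 743 to 969 bp at its start in a stretch of 1266 kb, and HS3ST3A1, a heparan sulphate sulphotransferase gene, 726 to 1056 bp in a stretch of 1043 kb. Peak lists cannot tell a region without the mark from one that is lost from the genome or not covered by reads.

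The loci were spread unevenly over the chromosomes. Chromosomes 9, 18 and 19 held 149 of the 483 (30.8%). On chromosome 18 the loci were 17 of 302 gene-end loci (5.63%), on chromosome 9 44 of 953 (4.62%) and on chromosome 19 88 of 1966 (4.48%). Of the 44 on chromosome 9, 43 lay beyond 86 Mb. The CFPAC1-only loci were 5.63%, 3.88% and 1.63% of the gene-end loci of these 3 chromosomes. Chromosome 21 had none of the MiaPaCa2-only loci among 233 gene-end loci. The copy number of the chromosomes in each line was not analysed here.

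**Figure D4:**
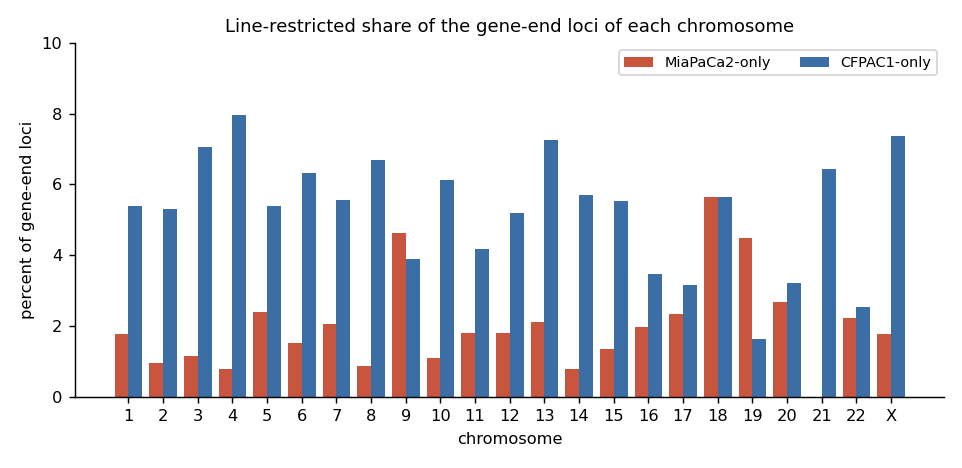
Percent of the gene-end loci of each chromosome (x axis) that were restricted to the 4 MiaPaCa2 libraries or to the 8 CFPAC1 libraries (y axis). MiaPaCa2-only loci reach 5.63% on chromosome 18, 4.62% on chromosome 9 and 4.48% on chromosome 19.

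Treatment of MiaPaCa2 was not part of the rule, and the IFN-β comparison asked whether these loci moved with it. No locus of the 483 gained or lost covered length past an adjusted p of 0.05 (limma on log2 of covered bp plus 500 bp, 4 MiaPaCa2 libraries, Benjamini-Hochberg adjustment over 51922 loci). In that fit 103 of all loci rose (0.198%) and 1 fell (0.00193%). At an unadjusted limma p under 0.05, 5 of the 483 were higher and 12 lower. Among all 51922 loci tested, 2425 (4.67%) were higher and 1729 (3.33%) lower at that p. The median log2 change was -0.05 over the 483 loci, 0.01 over all loci tested and 0.02 over the 28844 loci with a peak in all 4 MiaPaCa2 libraries. Since each locus had to have a peak in all 4 libraries, gains from 0 and losses to 0 could not be among them. The share of calls among all loci tested does not carry that condition.

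S1PR3, a receptor for sphingosine-1-phosphate, had the lowest p. Its start locus (chr9:88987424-88991300) had 1263 and 1789 bp without and 3274 and 3826 bp with IFN-β, and the groups did not overlap. The log2 change of covered bp plus 500 bp was 1.06 ± 0.18 (SE, limma adjusted p = 0.0694). With both libraries of each group kept, S1PR3 passed 0.05 without the filter on libraries and with all 12 libraries in the fit. It also passed under the replicate block (limma adjusted p = 0.000170), and in no other setting of this kind. The block pairs libraries only by the number in their labels, and their deviations correlated at only 0.103. It also takes a further coefficient from 4 libraries, which leaves little from which to estimate spread. No conclusion is drawn from the p-values under the block, here or at the loci below. By the rule, CFPAC1 libraries had no covered length at these loci, so the fit with all 12 understates their spread. KLK13, a kallikrein protease gene, had 324 and 265 bp without and 1191 and 1234 bp with IFN-β (log2 change 1.16 ± 0.29, limma adjusted p = 0.223). Among settings that kept both libraries of each group, KLK13 passed 0.05 in the same ones as S1PR3, with a limma adjusted p of 0.0464 under the replicate block. SCG2 and CXCL2 had the next lowest p among the higher loci, with log2 changes of 0.47 ± 0.15 (limma adjusted p = 0.395) and 0.81 ± 0.33 (limma adjusted p = 0.574). At CXCL2 the values were 468 and 200 bp without and 935 and 848 bp with IFN-β. The KLK13 and CXCL2 loci were not among the MiaPaCa2-only loci with a -log10 q of at least 5 or with equal peak numbers.

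FBXW5, which encodes an F-box protein, had the largest negative change, at a far-end locus (chr9:136939449-136941406). It had 1802 and 1444 bp without and 224 and 250 bp with IFN-β (log2 change -1.47 ± 0.27, limma adjusted p = 0.0901). Among settings that kept both libraries of each group, FBXW5 passed 0.05 in the same ones as S1PR3, with a limma adjusted p of 0.00176 under the replicate block. Its locus was not among the MiaPaCa2-only loci with a -log10 q of at least 5 or with equal peak numbers. DIPK1B had 2884 and 1800 bp without and 715 and 1295 bp with IFN-β (-0.86 ± 0.22, limma adjusted p = 0.254). Among settings that kept both libraries of each group, DIPK1B passed 0.05 in the same ones as S1PR3, with a limma adjusted p of 0.0273 under the replicate block. The locus shared by P3R3URF, PIK3R3 and TSPAN1 had 4117 and 3864 bp without and 2256 and 3089 bp with IFN-β (-0.46 ± 0.14, limma adjusted p = 0.385). SLC6A13, a GABA transporter gene, had 1192 and 1033 bp without and 340 and 227 bp with IFN-β (-0.99 ± 0.31, limma adjusted p = 0.409). In all 4 of these loci both treated libraries were below both untreated ones.

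Over the 483 loci, both treated libraries were above both untreated ones at 45 (9.32%) and below them at 107 (22.2%). The same counts were 13.3% and 19.7% of the loci with a peak in all 4 MiaPaCa2 libraries, and 13.4% and 20.6% of all loci tested. Total covered length of the 483 loci was 572.6 ± 70.9 kb untreated and 519.7 ± 75.1 kb treated (mean ± SD, n = 2 each). The difference of -53.0 kb was smaller than the spread within a group (exact permutation test over libraries, two-sided, p = 0.667, where 2 against 2 cannot go below 0.333). The covered length of whole libraries moved alongside, with 75.01 ± 4.54 Mb untreated and 70.4 ± 9.55 Mb treated, and its part in the difference was not tested.

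**Figure D5:**
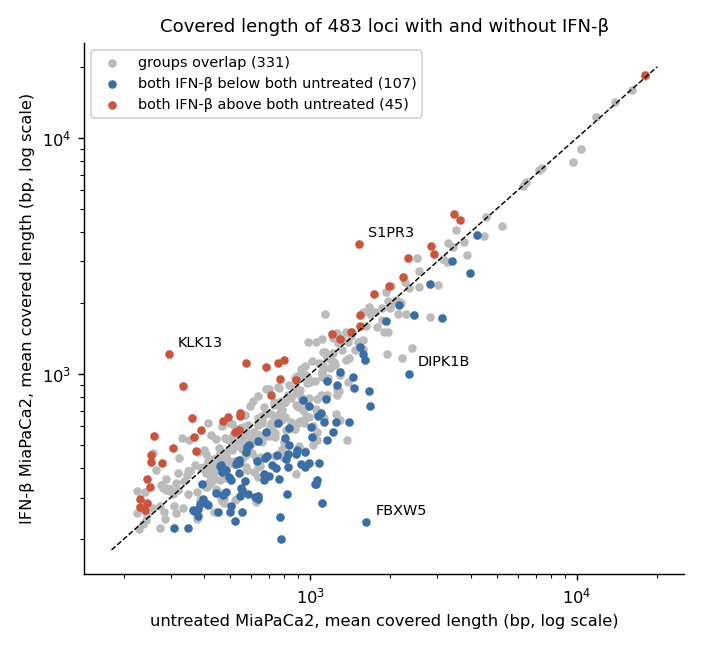
Mean covered length of the 483 loci in treated (y axis) against untreated MiaPaCa2 (x axis), both in bp on log scales, with the line of equality. Colours mark the 45 loci with both treated libraries above both untreated, the 107 with both below and the 331 that overlap; S1PR3, KLK13, FBXW5 and DIPK1B lie far from the line.

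The limits of the rule passed through a continuous range of loci. Just inside 1 kb, the locus at PTBP1 lay 993 bp and that at ZNF850 991 bp from a gene start, with means of 1168 and 439 bp. Just outside, loci at DUSP9 and GALK1 lay 1006 and 1012 bp from a gene end, with means of 546 and 727 bp. A further 406 gene-end loci had peaks in 3 of 4 MiaPaCa2 and no CFPAC1 library, and 258 had peaks in all 4 MiaPaCa2 libraries and in 1 CFPAC1 library.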

How the data were processed

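Per the labels, H3K27ac was immunoprecipitated from 12 libraries. The submitters' processing notes name Trimmomatic 0.38, Bowtie2 2.2.6, SAMtools, MACS2 2.1.0.20150731 and GRCh38. The authors deposited 1 peak list per library, not pooled. Each deposited peak carries a fold ratio over local background and -log10 p and q values (the smallest -log10 q was 1.3). The deposited score was not used. The control library and filters are not given in the sources used here.

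Peaks were merged where they overlapped, and gene ends came from RefSeq (GRCh38.p14, 19974 protein-coding genes, of which 15812 had a promoter entry giving the strand). Promoter sequences are those of RefSeq. The members and the 24 gene lists were chosen with earlier results of these data known. Named loci are the 12 with the largest mean covered length, the 8 highest in fold percentile, up to 6 genes per list by mean covered length, the 4 lowest p in each direction, those nearest the 1 kb limit and the 4 in the longest CFPAC1-free stretches. The ZNF genes and GAS1 were grouped by stretch, and the sequences chosen, after their values were seen. Some loci that the rule names are not reported here.

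For treatment, log2 of covered bp plus 500 bp was centred on each library's mean and fitted with limma 3.58.1 (R 4.3.3, trended prior) over loci with a peak in at least 2 MiaPaCa2 libraries. The fit was run on simulated data with large changes at broadly covered loci. That run does not speak to smaller changes or to loci with little covered length. Python 3.11.15, numpy 2.4.6 and pandas 2.3.3 were used. Alternatives covered the peak threshold, distance, overlap, merging, peak number, pseudocount, filter, centring, the libraries in the fit, a replicate block and leaving out each library.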

Additional observations from a re-analysis of the deposited data

How the results depend on the processing

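The count of 483 loci stayed within 1.5 times (332 to 687) under 5 other settings, and fell to 244 when peaks had to cover at least 50% of the locus in each MiaPaCa2 library. Leaving out 1 library gave 487 to 709 loci. The share at gene starts rose from 62.5% to 77.4% with the 50% cover and to 71.9% with a -log10 q of at least 5. Median width (983 bp) moved in 7 of 18 settings, between 796 bp without IFN-β 1 and 1772 bp with peaks merged up to 500 bp apart.

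Loci gained and lost with IFN-β, both 0 as reported (limma), numbered 4 and 3 without the filter on libraries and 2 and 3 with the replicate block. With all 12 libraries in the fit they numbered 3 and 11. By the rule, the CFPAC1 libraries had no covered length at any of these loci and so added no spread there. The selection itself thus lowered the variance in that fit, and no conclusion is drawn from its calls at these loci. Leaving out 1 library gave 0 to 5 gained and 0 to 9 lost: 5 and 0 without untreated 1, 3 and 9 without untreated 2, and 0 and 0 without either IFN-β library. Over all loci, 103 and 1 as reported became 1168 and 296 without the filter, 2214 and 2972 with all 12 libraries, 935 and 291 with the block, 53 and 1 with a pseudocount of 1000 bp, and 0 and 0 without centring, with quantile normalization, with a -log10 q of at least 5 or with equal peak numbers. Leaving out untreated 1 gave 737 and 86, untreated 2 1249 and 505, and either IFN-β library 0 and 0. The labels give the libraries of the groups only a shared number. Deviations of same-numbered libraries from their group means correlated at 0.103 over loci. With 2 libraries in each group the deviations mirror each other. The opposite pairing therefore gives -0.103, and the 2 pairs do not count separately. The total covered length differed by -2.81 kb without untreated 1 and by 0.159 kb without IFN-β 1, and leaving out 1 library gave -106.1 to 0.159 kb. The cause was not tested. Depth is unknown, and no peak is not proof that the mark is absent.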
